A study of Mus musculus with 4 samples.

Results

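Cells of mouse bone marrow stroma that expressed the leptin receptor gene Lepr (ENSMUSG00000057722), the adipokine gene Adipoq (ENSMUSG00000022878) and the chemokine gene Cxcl14 (ENSMUSG00000021508) together were taken from a CITE-seq experiment, which reads the RNA of single cells beside an antibody tag. A cell was a member when its barcode held at least 2 unique molecular identifiers (UMIs, one per captured RNA molecule) of Lepr, at least 1 of Adipoq and at least 2 of Cxcl14. There were 4060 such cells among the 15670 barcodes that passed the cell filter (at least 200 genes and at most 20% mitochondrial UMIs). The young mouse supplied 2465 members of 10063 kept barcodes (24.5%, 95% exact interval 23.7 to 25.3) and the old mouse 1595 of 5607 (28.4%, 27.3 to 29.6). The members were chosen by their measured UMIs of these 3 genes, so their levels are given as a description and were not tested.

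Femurs and tibiae came from 1 mouse aged 6 months and 1 mouse aged 24 months, both INK-ATTAC and both untreated. INK-ATTAC mice carry a transgene in which a fragment of the p16Ink4a promoter drives an inducible caspase 8, and both animals carried it. Digested marrow and bone were combined, depleted of cells with blood lineage markers, stained with an oligonucleotide-tagged CD24 antibody and sorted for live CD45- cells before 10x Genomics 3′ sequencing. With 1 library per age, a difference between ages cannot be told apart from a difference between the animals or their libraries, and it was not tested.

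Reticular cells of the marrow are marked by Lepr and are known as the main source of the chemokine CXCL12 and of stem cell factor (encoded by Kitl), which hold and feed blood stem cells. A part of this stroma carries adiponectin and early regulators of the adipocyte lineage without fat droplets, and marrow adipocytes arise from it. CXCL14 is a secreted chemokine, CXCL5 a chemokine that attracts neutrophils, KIT the receptor for stem cell factor, MRAP the partner protein of melanocortin receptors, and FABP4 a fatty acid carrier of adipocytes that capillary endothelium also makes.

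The 2 libraries held 82675434 and 68580402 RNA UMIs before the filter, and the members held 17094551 of them in the young mouse against 15685459 in the old one. The median member had 6010 UMIs with 2450 genes detected in the young mouse, and 9088 UMIs with 3217 genes in the old one, so old members were read more deeply. Predicted doublets, barcodes that may hold 2 cells, made up 5.72% of young and 2.13% of old members and were kept. Of the barcode sequences, 19 occurred in both libraries, and no barcode was a member in both. Levels below are CPM, the UMIs of a gene for every 1000000 UMIs summed over a group, and their intervals cover counting error only.

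The members had the RNA of marrow reticular stroma in both mice. All 21 stromal identity and niche genes examined were above 10 CPM, but so were 20 of them in the other kept barcodes of each mouse. Of these 21, 20 had no part in choosing the cells, and the remainder was a rule gene whose level follows from the choice. With that gene included, the summed level was 58237 CPM in young and 58525 CPM in old members, against 6355 and 5148 CPM in the other barcodes. Cxcl12 stood at 26064 CPM in young and 22980 CPM in old members, the second highest of all genes in each, against 1325 and 1075 CPM in all other kept barcodes. Kitl was at 1698 and 1934 CPM, and the transcription factors Ebf3 and Foxc1, which maintain this stroma, were at 871 and 711 CPM and at 620 and 632 CPM. The adhesion molecule Vcam1 was at 1294 and 1389 CPM, and the B-lymphocyte growth factor Il7 was found in 34.9% and 53.2% of members.

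Early genes of the adipocyte lineage were present at lower levels. Pparg, the nuclear receptor that drives adipocyte formation, was at 37.6 CPM in young and 61.1 CPM in old members, against 2.69 and 3.08 CPM in other barcodes. Its partner Cebpa was at 158 and 168 CPM, against 15.7 and 13.9 CPM. Lipoprotein lipase (Lpl) was at 1721 and 2532 CPM, and Apoe, a lipid carrier, at 4543 and 5439 CPM.

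Several genes of mature fat cells were at or near 0. Leptin (Lep) and the thermogenic gene Ucp1 had 0 UMIs in the members of both mice, which allows up to 3 UMIs of each. Plin1, which coats the large fat droplet, had 6 UMIs in young and 13 in old members, and its droplet partner Cidec had 1 and 2. Pck1 had 0 and 1 UMIs, and adipsin (Cfd) had 12 UMIs (0.702 CPM) and 88 UMIs (5.61 CPM). Of 40 genes of lipid storage and adipocyte function, 14 in young and 11 in old members stayed under 1 CPM, against 13 and 14 in other barcodes. At 10 CPM or more were 19 and 20 of them, against 20 and 20, so these counts do not set the members apart. Summed, the 40 genes stood at 6941 and 8903 CPM in members, against 1218 and 1587 CPM in other barcodes. The label of adipogenic-like cells was thus met by early lineage genes and not by these genes of filled adipocytes, and the cells are called here by their rule.

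Genes that define other cells were near 0 in some cases and not in others. The endothelial gene Cdh5 had 1 UMI in young and 0 in old members, while Pecam1 was at 0.877 and 0.638 CPM. Fabp4, which belongs to the endothelial list too, was found with these 2 genes near 0. Of the 6 endothelial genes, 2 in young and 1 in old members were at 10 CPM or more. The 6 summed to 62.3 and 136 CPM, against 24.9 and 24.7 CPM in other barcodes, and the source of this RNA was not tested. The leukocyte gene Ptprc, which encodes the sorted-out CD45, was in 2.68% and 1.57% of members. The 6 erythroid genes summed to 2352 CPM in young and 810 CPM in old members, against 3418 and 8775 CPM in other kept barcodes. The 6 neutrophil genes summed to 3649 and 4803 CPM, against 2235 and 7927 CPM. The 6 B-lineage genes summed to 881 and 1044 CPM, against 844 and 581 CPM. Only 1 of them was above 100 CPM in the members of each mouse, and it made up most of the sum. The median of the 6 was 4.04 and 0.765 CPM, and 4 of them were under 1 CPM in old members. In the Lepr and Adipoq cells low in Cxcl14, compared further on, 5 of the 6 were at 0 in each mouse. The sums there were 811 and 1456 CPM. Of the neutrophil genes none was at 0, and 5 of 6 were above 100 CPM in each mouse.

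**Figure D1:**
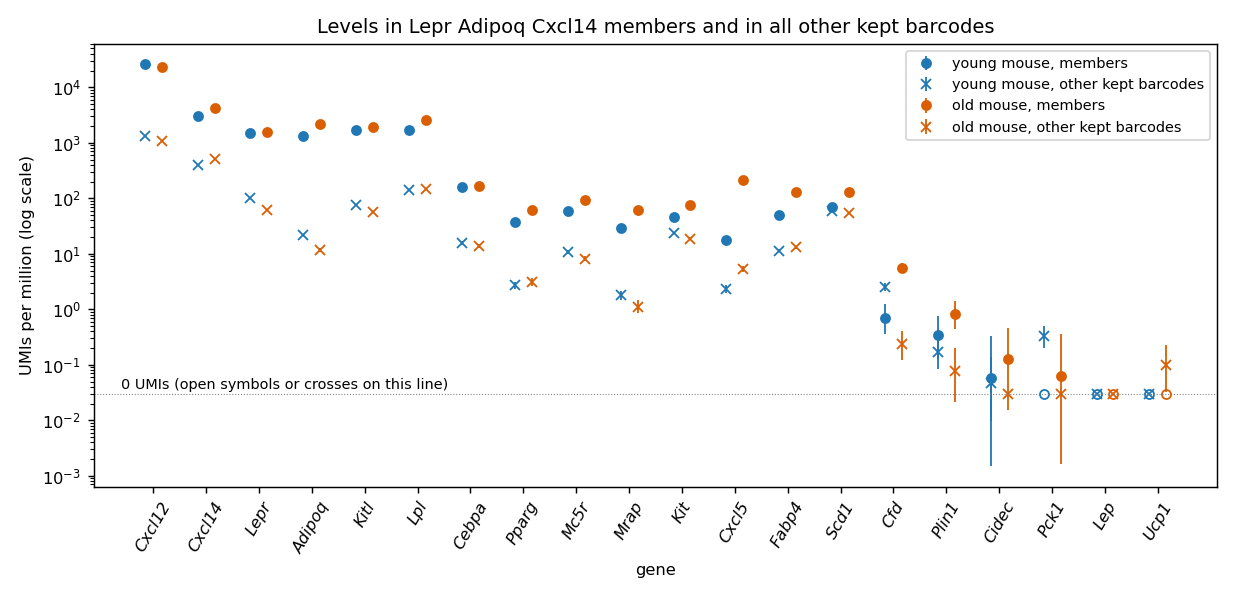
Summed level of each gene in CPM on a log axis, in the members and in all other kept barcodes of the young and the old mouse, 1 mouse per age, with bars for the exact 95% Poisson interval and symbols on the dotted line for 0 UMIs. Cxcl12 reached 26064 and 22980 CPM in members against 1325 and 1075 CPM elsewhere, and Pparg 37.6 and 61.1 CPM against 2.69 and 3.08 CPM.

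Cxcl14 was a general feature of Lepr and Adipoq cells rather than of a small subset. Of the cells with at least 2 Lepr UMIs and 1 Adipoq UMI, 2465 of 2610 (94.4%, 93.5 to 95.3) in the young mouse and 1595 of 1657 (96.3%, 95.2 to 97.1) in the old mouse reached 2 Cxcl14 UMIs. Raising the limit to 5 UMIs still left 83.3% and 91.9%. Members held a median of 13 Cxcl14 UMIs in the young mouse (range 2 to 285) and 27 in the old mouse (2 to 398). Their Cxcl14 level was 3086 and 4209 CPM, rank 24 and rank 16 of all genes by UMIs, which count transcript ends and do not grow with transcript length.

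Just inside the limit lay 94 young and 26 old cells with exactly 2 Cxcl14 UMIs, and just outside it 82 and 26 cells with 1. Cells with 2 and with 1 Cxcl14 UMIs had alike Lepr levels in the young mouse, at 1700 and 1653 CPM, while cells with 0 stood at 782 CPM. In the old mouse the Lepr levels were 1971 CPM at 2 UMIs, 1527 CPM at 1 and 608 CPM at 0. Median depth was 3842, 3372 and 3691 UMIs per young cell and 2868.5, 2359 and 2288.5 UMIs per old cell, all below that of the average member.

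A cell that should lack Cxcl14 gives the level of free RNA in the droplets. A Cxcl14 UMI was found in 6.62% to 12.8% of young and 13.4% to 22.2% of old neutrophil-like, B-lineage-like and erythroid-like barcodes, at median depths from 2531 to 15843 UMIs. At least 2 Cxcl14 UMIs were found in 0% to 6.38% of them. Kit, Cxcl5, Mrap and Fabp4 had UMIs in 0% to 2.97% of the same barcodes.

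**Figure D2:**
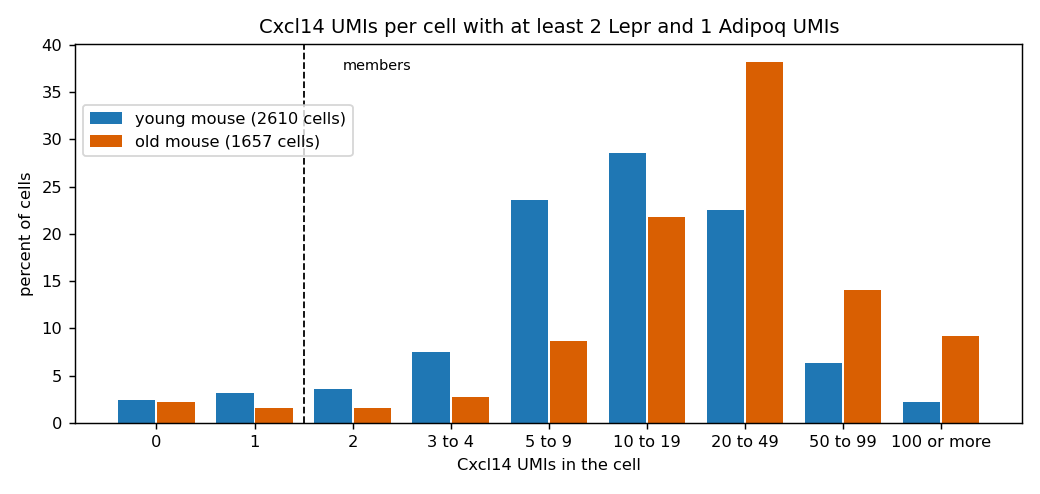
Share in percent of cells with at least 2 Lepr and 1 Adipoq UMIs that fell in each class of Cxcl14 UMIs, for the young (2610 cells) and the old mouse (1657 cells), with the rule's limit as a dashed line. The fullest class was 10 to 19 UMIs in the young mouse (28.6%) and 20 to 49 UMIs in the old mouse (38.2%).

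The promoters of 4 genes that the results turn on are shown from RefSeq (GRCm38.p6), each from 250 bases before to 50 bases after the gene start, 5′ to 3′ on the strand of the gene. Cxcl14 and Adipoq chose the cells, and Kit and Hoxa13 were highest in the members richest in Cxcl14, as described further on. Capitals mark matches to the searched motifs, of which CCAAT (or ATTGG on the other strand) and TTNNGNAA, a pattern of C/EBP factors, were the ones found.
Cxcl14 chr13:56296502-56296801 (minus strand): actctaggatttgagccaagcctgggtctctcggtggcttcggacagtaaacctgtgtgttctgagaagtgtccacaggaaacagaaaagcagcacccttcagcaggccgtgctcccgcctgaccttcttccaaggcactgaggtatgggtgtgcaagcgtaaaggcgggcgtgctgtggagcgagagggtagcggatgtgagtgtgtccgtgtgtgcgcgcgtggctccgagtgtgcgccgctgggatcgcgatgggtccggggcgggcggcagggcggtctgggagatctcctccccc
Kit chr5:75574737-75575036 (plus strand): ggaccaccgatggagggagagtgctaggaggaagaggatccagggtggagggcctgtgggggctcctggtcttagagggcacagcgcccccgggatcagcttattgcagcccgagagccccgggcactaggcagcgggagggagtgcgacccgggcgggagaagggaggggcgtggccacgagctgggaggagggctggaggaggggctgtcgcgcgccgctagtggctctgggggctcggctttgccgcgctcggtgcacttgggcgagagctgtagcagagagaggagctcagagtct
Adipoq chr16:23146286-23146585 (plus strand): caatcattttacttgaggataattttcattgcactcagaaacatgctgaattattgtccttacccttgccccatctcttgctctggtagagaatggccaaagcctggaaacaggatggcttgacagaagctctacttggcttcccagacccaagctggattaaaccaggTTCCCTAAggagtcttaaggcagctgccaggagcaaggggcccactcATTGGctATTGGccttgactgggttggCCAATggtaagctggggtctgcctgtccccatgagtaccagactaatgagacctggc
Hoxa13 chr6:52260831-52261130 (minus strand): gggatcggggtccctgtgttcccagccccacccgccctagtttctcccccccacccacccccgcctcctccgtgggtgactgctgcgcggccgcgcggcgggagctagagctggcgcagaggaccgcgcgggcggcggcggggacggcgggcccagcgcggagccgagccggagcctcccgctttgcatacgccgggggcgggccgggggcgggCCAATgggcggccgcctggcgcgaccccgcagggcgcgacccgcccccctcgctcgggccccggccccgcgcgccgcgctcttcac
The Adipoq window held CCAAT or ATTGG with first bases at -34, -27 and -7 from the start and a TTNNGNAA match at -81. The Hoxa13 window held CCAAT at -36. The Cxcl14 and Kit windows held none of the 5 motifs searched on both strands (the TATA box as TATAAA, the CCAAT box, the C/EBP pattern above, the EBF palindrome and the direct repeat bound by PPARG with RXR). Over 32851 promoter windows of the same length CCAAT occurred in 37.4% and TTNNGNAA in 40.7%, so such matches are common. GC content was 62.7% for Cxcl14, 69% for Kit, 50% for Adipoq and 81% for Hoxa13. Kit has 2 windows in the table, and the first is shown.

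Members were next compared with Lepr and Adipoq cells of low Cxcl14, to see which other genes went with the chemokine. The comparators had at least 2 Lepr, at least 2 Adipoq and under 2 Cxcl14 UMIs. There were 84 such cells from the young mouse and 18 from the old one, with 340224 and 57001 UMIs in all, and their medians of 3592 and 2338 UMIs per cell lay below those of the members. Old comparators had a median of 6.63% mitochondrial UMIs, against 2.68% in old members. Low depth itself favours a low Cxcl14 count. In the test given below, 0 of 3865 genes passed with depth-matched cells and 1 of 11496 with cells thinned to 5000 UMIs. Both settings also used fewer cells, and the part of depth alone in the differences was not tested.

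Of the markers that name these cells, which were named with earlier results of these data known and are described only, Kit (ENSMUSG00000005672) was higher in members of both mice. It was at 47.0 CPM in young members against 2.94 CPM (1 UMI) in comparators, a ratio of 16.0 with a counting interval of 2.86 to 632. In old members it was at 76.9 CPM against 0 UMIs, at least 1.46-fold higher. Cxcl5 (ENSMUSG00000029371) was at 17.5 CPM against 8.82 CPM (3 UMIs) in the young mouse, a ratio of 1.98 whose interval of 0.672 to 9.67 spans no difference, and at 213 CPM against 0 UMIs in the old mouse, at least 4.04-fold higher. These bounds set 3 UMIs over the comparators of a mouse, 52.6 CPM in the old one, in place of 0. The fitted log2 difference of Kit over both mice was 4.48, and 1.71 against comparators of at least 1 Adipoq UMI, which took in 16 Kit UMIs of young cells with 0 Cxcl14 UMIs.

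Mrap (ENSMUSG00000039956) and Fabp4 (ENSMUSG00000062515) went opposite ways in the 2 mice. Mrap was at 29.0 CPM in young members against 23.5 CPM, and at 62.4 CPM in old members against 70.2 CPM (4 UMIs), and both ratio intervals (0.621 to 2.87 and 0.346 to 3.27) span no difference. Fabp4 was at 49.3 CPM against 129 CPM in the young mouse, where 9 comparator cells held its 44 UMIs, and at 130 CPM against 52.6 CPM (3 UMIs) in the old mouse, with ratio intervals of 0.282 to 0.529 and 0.843 to 11.98.

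Across all genes few differences passed. Counts were summed into 4 libraries, 1 per mouse and status, and compared by the quasi-likelihood F test of edgeR blocked on the mouse, which left 1 residual degree of freedom. Of 12930 genes, 11 were higher in members (0.0851%) and 3 lower (0.0232%) at a Benjamini-Hochberg adjusted p of 0.05, and 354 passed at an unadjusted p under 0.05. Cxcl14 itself would pass by construction and is left out of these counts. The marker Kit is among the 11, but it was named with earlier results of these data known, so its call is not read as a test.

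The chemokine gene Cxcl9 and the vaspin gene Serpina12 were among those higher. Cxcl9, an interferon-induced chemokine for T cells, was at 110 CPM in young members against 26.5 CPM and at 345 CPM in old members against 35.1 CPM, a log2 difference of 2.62 (SE 0.54, edgeR adjusted p 0.0016). Its comparator values rest on 9 and 2 UMIs, and the ratios had counting intervals of 2.18 to 9.08 and 2.72 to 81.3. Serpina12, which encodes a serpin secreted by fat tissue, was at 232 against 55.8 CPM and at 357 against 140 CPM, a log2 difference of 1.95 (SE 0.49, edgeR adjusted p 0.0495). It was found in 1198 young and 1004 old members, whereas at least 50% of the Cxcl9 UMIs lay in 14 young and 18 old cells. The Serpina12 call sat at the threshold and was lost with RLE size factors (adjusted p 0.051), without the filter on low counts (0.075), with members of at least 2 Adipoq UMIs (0.0648) and with a mitochondrial limit of 10% (0.0577). It was also lost against comparators of 0 Cxcl14 UMIs, in thinned or depth-matched cells, in DESeq2 and without the block. The Cxcl9 call was lost too against comparators of 0 Cxcl14 UMIs (edgeR adjusted p 0.117), in thinned cells, in DESeq2 and without the block. Among depth-matched cells Cxcl9 had too few UMIs to be tested. The difference had the same direction in both mice for both genes.

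Apart from Kit, which is described only, the other genes higher in members were those of blood cells. Ltf, Camp and Ngp belong to neutrophil granules, Hbb-bs, Hbb-bt, Hba-a1 and Hba-a2 encode haemoglobin, and Igkc encodes an antibody light chain. Camp was at 217 CPM in young and 290 CPM in old members, a log2 difference of 5.66 (SE 0.75, edgeR adjusted p 5.4e-10), but the comparators held 2 UMIs in the young mouse (a ratio of 36.9, counting interval 10.2 to 305) and 0 in the old (at least 5.52-fold). It was found in 49 and 57 member cells, and 4 cells in each mouse held at least 50% of its UMIs. Ltf had 0 UMIs in the comparators of both mice and was at least 6.02-fold higher in young and 1.54-fold higher in old members. For Hbb-bs, found in 669 and 767 members, 3 cells in each mouse held at least 50% of the UMIs, and for Igkc 1 old cell did. Over the whole lists, the 6 neutrophil genes summed to 3649 CPM in young members against 5599 CPM in comparators and to 4803 against 298 CPM in the old mouse, and the 6 erythroid genes to 2352 against 220 CPM and to 810 against 316 CPM. The part of blood RNA in these calls was not tested. Haemoglobin reads of these near-identical genes may be shared out among them in counting.

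The genes that were lower, Matn4, F13a1 and Bglap3, are named after their values were seen and rest on little. They had 27, 12 and 20 UMIs in the young comparators, in 1, 1 and 4 cells, and 0 UMIs in the old comparators. Bglap3 is a near copy of the osteocalcin genes, whose reads can be split between them.

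No gene of the stromal and adipocyte groups passed between members and comparators. Of 20 stromal identity and niche genes tested, 15 adipogenic transcription factors, 27 genes of lipid storage, 9 of the melanocortin and insulin pathway, 18 osteogenic, 15 fibroblast and 17 inflammatory genes, none passed in either direction, where 0.0851% and 0.0232% of all genes passed, so counts of 0 say little about these groups. Their median log2 differences ran from 0.10 to 0.47, beside 0.14 over all genes tested. Of the thermogenic adipocyte genes 3 were tested and 0 passed, with a median of 1.38, or -0.56 with genes at 0 in comparators set to their bound. Of 18 chemokines tested, 1 passed, Cxcl9. Of 6 neutrophil genes 3 passed and of 6 erythroid genes 2, all higher in members. With 84 and 18 comparator cells, a miss does not show that the groups were alike.

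Within the members, Cxcl14 ran from scarce to abundant, and a group of genes ran with it. The members of each mouse were split by the share of Cxcl14 in their UMIs into 3 equal parts, a description chosen after the data had been seen. Median depth was even over the parts, from 5925 to 6094.5 UMIs in the young and from 8704.5 to 9550 UMIs in the old mouse. Of 11547 genes with enough UMIs, 11 were at least 2-fold higher (0.0953%) and 141 at least 2-fold lower (1.22%) in the part highest in Cxcl14 than in the lowest part of both mice, with 5 CPM added to each level before the ratio, which shrinks the ratios of low genes.

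Kit and Cxcl5 were among the 11 genes that were higher. Kit went from 6.89 CPM in the lowest to 136 CPM in the highest part among young members, and from 10.3 to 202 CPM among old members. It was found in 1.95% and 25.7% of the young members of these parts, and in 3.76% and 45.2% of their old members. Cxcl5 went from 2.72 to 51.6 CPM in young cells and from 53.9 to 499 CPM in old ones. In the middle part Kit was at 6.16 CPM in young members, near the lowest part, and at 20.2 CPM in old members, about 2-fold above it.

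Hox genes of the distal limb were among the others. Hoxa13, a factor of the most distal limb and of the urogenital tract, went from 1.12 to 14.1 CPM and from 0.749 to 22.5 CPM, and Hoxa11os from 3.84 to 19.3 CPM and from 7.30 to 22.3 CPM. Hoxa11os lies antisense to Hoxa11, and their reads cannot be told apart unless strand was used in counting. Scd1, which makes monounsaturated fatty acids, went from 41.5 to 120 CPM and from 85.1 to 196 CPM. A2m, a secreted protease inhibitor, went from 59.9 to 152 CPM and from 36.7 to 170 CPM, and Bmper, a regulator of BMP signalling, from 30.7 to 75.8 CPM and from 20.0 to 65.3 CPM. Lrrtm4, Ncam2, Cd300lg and Ptgs1 made up the remainder.

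Mrap differed less, from 21.8 to 46.5 CPM in young cells and from 35.4 to 95.1 CPM in old ones, and stayed below 2-fold in the former on that scale. The osteopontin gene Spp1 went from 3073 to 5488 CPM and from 1811 to 5255 CPM. Lepr differed little, from 1403 to 1534 CPM and from 1613 to 1478 CPM, nor did Kitl, from 1604 to 1648 CPM and from 1881 to 1802 CPM. Pparg stood at 33.9 and 42.0 CPM in the young and at 57.3 and 61.6 CPM in the old mouse.

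Several lists held genes that were lower. All 6 neutrophil genes, 3 of 6 erythroid genes and 5 of 13 fibroblast genes were at least 2-fold lower in the highest part of both mice, against 1.22% of all genes. So were 3 of 18 osteogenic, 3 of 16 inflammatory and 3 of 14 senescence and cell cycle genes. S100a8 went from 1955 to 272 CPM and from 3467 to 401 CPM, and the collagen gene Col1a1 from 2501 to 320 CPM and from 3153 to 673 CPM. At least 50% of the S100a8 UMIs lay in 10 young and 6 old members, and of the Col1a1 UMIs in 11 and 6. Col1a1 was found in 62.4% of the lowest and 62.0% of the highest part in the young mouse. In the old mouse it was found in 84.6% and 87.9%. The share of predicted doublets was 11.3% in the lowest and 2.19% in the highest part of the young mouse and 3.20% and 0.942% in the old mouse. With predicted doublets left out, 16 genes were higher and 142 lower, and the part of the blood genes in the order of the cells was not tested.

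**Figure D3:**
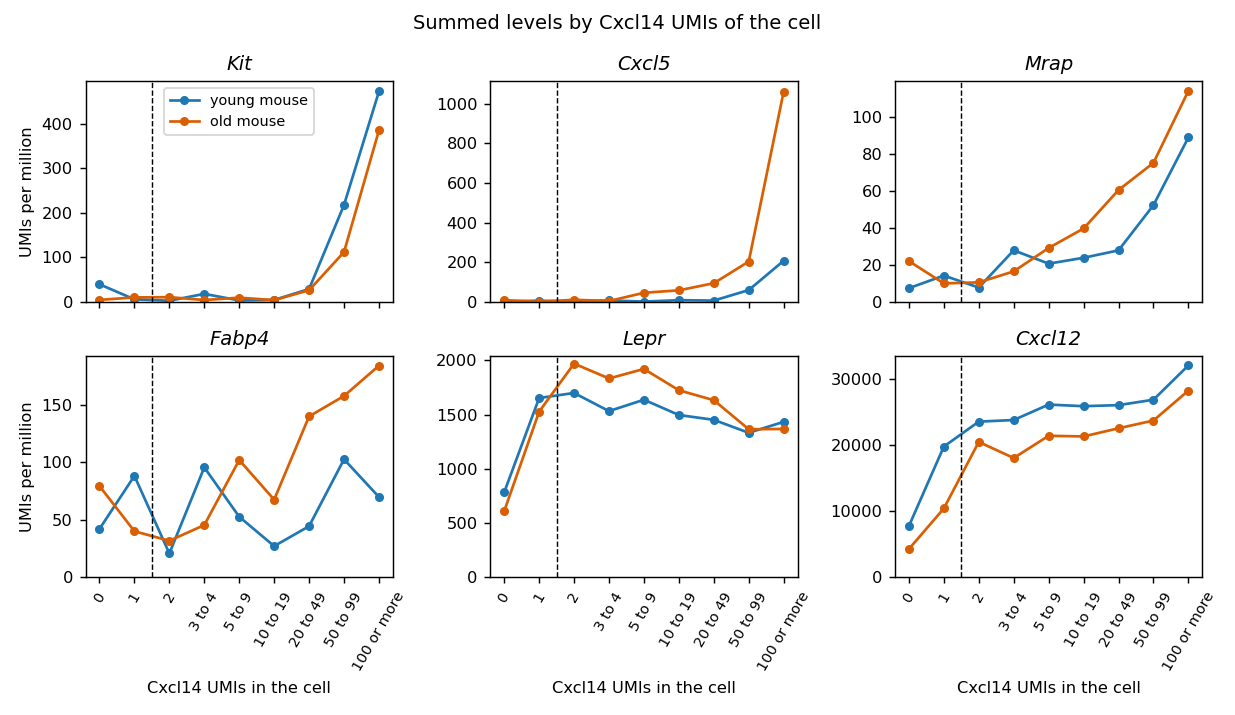
Summed level in CPM of Kit, Cxcl5 and further genes in cells with at least 2 Lepr and 1 Adipoq UMIs, by the number of Cxcl14 UMIs of the cell, for the young and the old mouse, with the limit of the rule as a dashed line. Kit was at 39.5 CPM (16 UMIs) in the 63 young cells with 0 Cxcl14 UMIs, which lie outside the rule. In members Kit went from 2.58 CPM at 2 Cxcl14 UMIs to 473 CPM at 100 or more in young cells and from 10.5 to 385 CPM in old ones.

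The same order was seen at equal depth. Each member was thinned to 5000 UMIs, which left 1568 young and 1446 old cells. Spearman's rho with Cxcl14 over these cells was 0.41 in the young mouse against 0.49 in the old one for Kit, 0.24 and 0.35 for Cxcl5, 0.31 and 0.33 for Cxcl12, 0.12 and 0.16 for Mrap, 0.06 and -0.13 for Lepr and 0.03 and 0.05 for Fabp4. These values describe cells that share a library and are no test.

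Kit was carried by a minority of the members. At least 2 Kit UMIs were found in 159 young members (6.45%) and 209 old members (13.1%), of which 92.5% and 88.0% lay in the part highest in Cxcl14. These cells held 9428 and 10500 CPM of Cxcl14, against 2342 and 2895 CPM in the 2222 and 1301 members without a Kit UMI. Cxcl5 was at 126 and 891 CPM in them against 5.63 and 86.9 CPM, and Mrap at 72.8 and 130 CPM against 23.9 and 46.8 CPM.

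Distal Hox genes and osteopontin were higher in the Kit cells. Hoxa13 was at 25.6 and 38.0 CPM against 2.72 and 2.23 CPM, and Hoxa11 at 32.6 and 41.5 CPM against 11.4 and 10.1 CPM. Most Kit cells held no UMI of either, since Hoxa13 was found in 19.5% of young and 31.1% of old Kit cells (1.67% and 1.77% without Kit) and Hoxa11 in 23.3% and 34.9% (6.48% and 7.46%). Spp1 was at 7086 and 7696 CPM against 3514 and 1971 CPM. Kitl, the ligand of KIT, was at 1283 and 1538 CPM against 1746 and 2038 CPM, so ligand and receptor RNA were found in the same cells. Lepr stood at 1268 and 1441 CPM against 1530 and 1640 CPM.

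Blood cells also carry KIT, and their markers were looked for in the same barcodes. Ptprc was found in 3.14% of young and 0.478% of old Kit cells, against 2.61% and 1.69% of members without a Kit UMI. Myb, a factor of blood progenitors, was found in 7.55% and 1.91% of Kit cells against 1.67% and 1.84%, with summed levels of 68.6 and 1.77 CPM against 4.71 and 2.71 CPM. Gata2, shared by blood progenitors and mast cells, was found in 4.40% and 0.478% against 0.540% and 1.15%, at 15.9 and 0.884 CPM against 1.06 and 1.28 CPM. The mast cell gene Cpa3 was found in 2 young Kit cells, in 0 old ones and in 0 members without Kit. Myb and Gata2 were thus higher in young Kit cells and not in old ones, and the part of blood cells in the Kit signal was not tested.

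Cxcl14 was not confined to the members. A further 1726 young and 1235 old barcodes held at least 2 Cxcl14 UMIs without meeting the rule, and members made up 58.8% and 56.4% of all barcodes at that limit. Of these, 923 and 740 had 0 UMIs of both Lepr and Adipoq. They held fibroblast and tendon genes at higher levels than members. Comp, a matrix protein of tendon and cartilage, was at 3421 and 4242 CPM in them against 343 and 278 CPM in members, the collagen gene Col3a1 at 7106 and 9781 CPM against 738 and 704 CPM, and Mmp3 at 454 and 450 CPM against 19.5 and 16.7 CPM. Members were higher in the haptoglobin gene Hp, at 6211 and 3914 CPM against 107 and 101 CPM, in Esm1, at 928 and 1492 CPM against 8.73 and 5.48 CPM, and in Serpina12, at 232 and 357 CPM against 0.606 and 1.08 CPM.

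Chemokine RNA of the members was led by 2 genes. After Cxcl12 and Cxcl14, Ccl2 stood at 257 and 257 CPM, Cxcl1 at 193 and 216 CPM and Cxcl9 at 110 and 345 CPM, so Ccl2 came next in young and Cxcl9 in old members. Of 29 measured chemokines, 7 had 0 UMIs in the members of each mouse.

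Members of the old and the young mouse were set side by side by size alone. Of 11550 genes with at least 100 UMIs over both mice, 142 were at least 2-fold higher (1.23%) and 94 at least 2-fold lower (0.814%) in the old mouse. The excess of higher genes depended on the cells used, with 160 higher and 160 lower in cells thinned to 5000 UMIs and 154 and 199 without the 10 richest cells. The 6 largest ratios in this direction were those of Igkc, Ighv4-1, Igkv1-88, Iglc1, Ighm and Cxcl5. The first 5 are antibody genes, which were higher in the other barcodes of the old library too. Igkc went from 7.25 to 1725 CPM, and 1 old member held at least 50% of its UMIs.

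Cxcl5 was the one stromal gene among them. It went from 17.5 to 213 CPM, 12.2-fold (counting interval 10.8 to 13.7), and from 94 young (3.81%) to 470 old members (29.5%). At 5000 UMIs per cell it was found in 3.70% and 24.2%. In all other barcodes its log2 difference was 1.19.

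Most other markers of the cells were also higher in the old mouse. Fabp4 was 2.63-fold higher (2.43 to 2.86), Mrap 2.15-fold (1.93 to 2.40), Kit 1.64-fold, Adipoq 1.60-fold and Cxcl14 1.36-fold. Mrap was found in 12.2% of young and 30.8% of old members, and its log2 difference in the other barcodes was -0.67. The melanocortin receptor genes Mc2r and Mc5r were 3.24-fold (2.16 to 4.96) and 1.57-fold (1.45 to 1.70) higher, while Mrap2 had 0 and 1 UMIs. Pparg was 1.63-fold higher (1.47 to 1.80), Cebpa 1.06-fold and Lepr 1.06-fold.

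Of 17 chemokines with enough UMIs, 3 were at least 2-fold higher in old members, Cxcl5, Cxcl9 and Cxcl10, and the median log2 difference was 0.16. Ccl2 was at 257 CPM in both mice, Ccl7 at 68.6 and 64.7 CPM and Cxcl2 at 53.5 and 43.5 CPM. Cxcl9 went from 110 to 345 CPM, 3.15-fold (2.99 to 3.32), and from 8.88% to 23.2% of members, whereas its log2 difference in the other barcodes was -1.02. Cxcl10, a related interferon-induced chemokine, went from 41.5 to 122 CPM, but 4 cells in each mouse held at least 50% of its UMIs. Il1rn, the antagonist of interleukin-1, went from 157 to 361 CPM and from 43.4% to 69.0% of members, and its log2 difference elsewhere was 1.41.

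The largest ratios in the other direction, those of Serpina1a, Serpina1d, Acta1, Tnnt3, Gm17167 and Msmp, rested on few cells apart from Gm17167. Serpina1a had 427 UMIs in young members, at least 50% of them in 2 cells, and 2 UMIs in old members, a ratio of old to young of 0.00510 (0.000616 to 0.0186). It is a close copy of Serpina1d, so reads can be split between them. Acta1 and Tnnt3 are skeletal muscle genes, for which 1 young cell held that share. Gm17167 was found in 237 young and 7 old members and was also lower in the other barcodes, with a log2 difference of -5.17. Among abundant genes Hp was at 6211 and 3914 CPM and the bone sialoprotein gene Ibsp at 7326 and 4946 CPM, both under 2-fold lower.

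Genes of senescence are the theme of the study. Cdkn2a, the p16 gene, was found in 20 young and 24 old members, and Cdkn1a, the p21 gene, was at 101 and 80.1 CPM. None of 14 genes of senescence, survival and cell cycle with enough UMIs reached 2-fold, and only 1.23% and 0.814% of all genes did so in either direction.

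**Figure D4:**
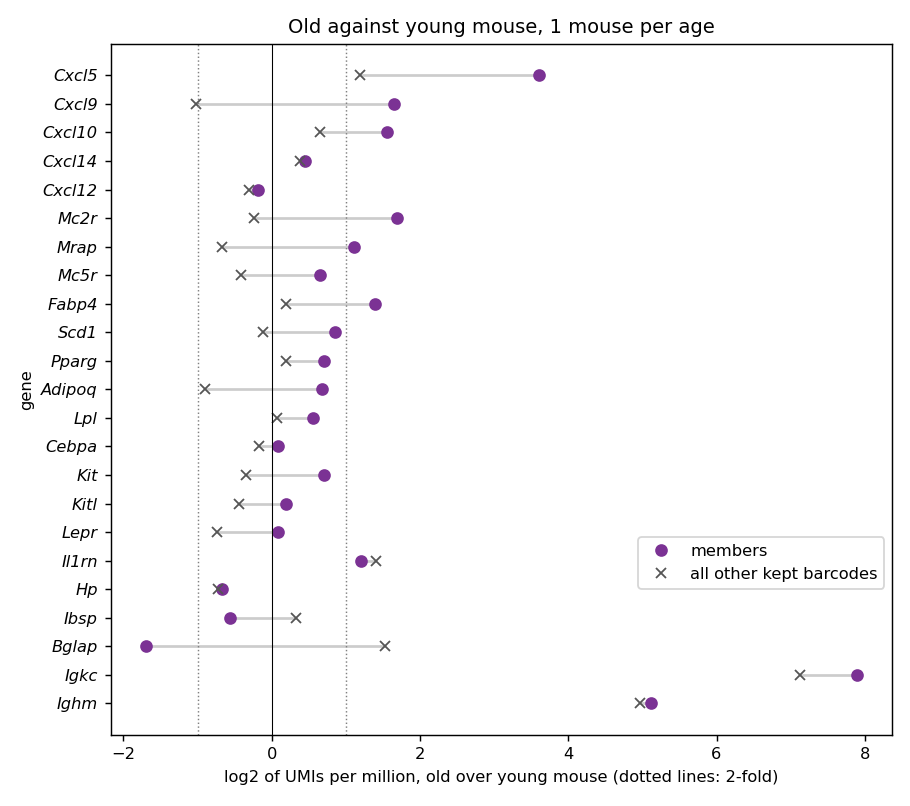
Log2 ratio of CPM in the old over the young mouse for named genes, in the members and in all other kept barcodes, with dotted lines at 2-fold. No test was made, since there was 1 mouse per age. Cxcl5 was 12.2-fold and Mrap 2.15-fold higher in old members, and Lepr 1.06-fold.

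The CD24 antibody did not single out the members. The median count per cell was 90 in young members (quartiles 57 and 139) and 87 in old members (60 and 132), against 78 and 83 in comparators and 94 and 98 in all other kept barcodes. These middle ranges overlapped. Per 1000 RNA UMIs the medians were 14.9 and 9.90 in members and 21.3 and 27.3 in the shallower comparators. Cd24a RNA was found in 5.60% of young and 6.33% of old members.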

How the data were processed

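The deposited values are raw counts of UMIs per gene and barcode for 32285 genes and 1 CD24 antibody, made by the authors with Cell Ranger and not normalized. The submitters' processing notes name mm10, R 4.0.3 and Seurat 4.0. Barcodes under 200 genes (588 young, 298 old) or over 20% mitochondrial UMIs (1306 and 1117) were left out. Scrublet, run on each library through scanpy 1.11.5 (Python 3.11.15, seed 1), marked doublets, which were kept, and leaving them out was an alternative.

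Raw counts were summed per mouse and status and tested with edgeR 4.0.16 in R 4.3.3 (quasi-likelihood F test, TMM, filterByExpr, two-sided, Benjamini-Hochberg threshold 0.05) with the mouse as a block, since members and comparators of a mouse share the animal. With 1 residual degree of freedom the spread is mostly borrowed across genes. In a simulation, 136 of 200 genes given a log2 change of 2 (68%) were recovered with 5 false calls among 12568 genes tested. Its counts had the same fixed spread for every gene, not estimated from these data, and no difference between mice. Its false calls therefore do not carry over to genes whose UMIs lay in few cells. DESeq2 1.42.0 was an alternative. Shares have exact Clopper-Pearson intervals, levels exact Poisson intervals and ratios exact conditional intervals at 95% (SciPy 1.17.1, NumPy 2.4.6), all for counting error only. A count of 0 was set to 3 UMIs over the group for bounds.

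The members and gene lists were chosen with earlier results of these data known. Named genes are the rule genes, the markers of the cells, up to 12 largest rises and 8 largest falls past the threshold with 1 direction in both mice and at least 50 UMIs, up to 4 per list, the best known members of lists without a call, and the 6 largest age ratios each way. Of 33 chemokines listed, 4 were not measured (Ccl19, Ccl21a, Ccl27a, Cxcl11). Promoters are from RefSeq (GRCm38.p6), and those of Cxcl5 and Mrap were not used here.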

Additional observations from a re-analysis of the deposited data

Results flagged for a closer look

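The difference between members and comparators had opposite signs in the 2 mice for 2 markers, and the difference between the mice was not tested. For Mrap the log2 ratio of members over comparators was 0.22 in the young mouse against -0.34 in the old one, with 8 and 4 UMIs in the comparators. For Fabp4 it was -1.41 in the young mouse against 1.08 in the old one, with 44 and 3 UMIs in the comparators.

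Between the parts of the members highest and lowest in Cxcl14, 3 other chemokines had opposite signs in the 2 mice, also untested. The log2 ratio of the highest over the lowest part, with 5 CPM added to each level, was 0.96 in the young mouse against -0.55 in the old one for Cxcl9, 0.78 and -1.22 for Cxcl10, and -0.56 and 1.43 for Cxcl13. At least 50% of the UMIs of Cxcl9 lay in 14 young and 18 old members, those of Cxcl10 in 4 and 4, and those of Cxcl13 in 7 and 4.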

How the results depend on the processing

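The count of 14 genes differing between members and comparators was the result that depended most on the processing. It was 0 without the replicate block (642 genes at an unadjusted p under 0.05), 1 in DESeq2 with the block, 1 with cells thinned to 5000 UMIs and 0 with depth-matched cells (136 at an unadjusted p under 0.05 in edgeR). It was 774 with comparators of at least 1 Adipoq UMI, which included all 14, and 72 with members of at least 5 and comparators of under 5 Cxcl14 UMIs, a setting chosen after seeing the data, which shared 8. With comparators of 0 Cxcl14 UMIs it was 10, of which 5 were among the 14. Other settings gave 13 to 15, of which 13 or 14 were shared. In the last setting 7 blood genes turned, with log2 differences of -1.87 for Ltf, -1.16 for Camp, -1.67 for Ngp, -0.26 for Hbb-bt, -0.25 for Hba-a1, -0.12 for Hbb-bs and -0.55 for Hba-a2. With depth-matched cells Hbb-bt was at -0.0125, Hba-a1 at -0.58 and Hbb-bs at -0.66. With comparators of 0 Cxcl14 UMIs Mrap was at -0.16, Matn4 at 8.08 and F13a1 at 7.01, and with comparators of at least 1 Adipoq UMI Fabp4 was at 0.25. The cause was not tested. Leaving out either mouse leaves no residual degree of freedom and gives values without a test.

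The share of members among Lepr and Adipoq cells was 96.4% in the young mouse against 99.2% in the old one at 5000 UMIs per cell, 97.6% and 97.8% with at least 1 Cxcl14 UMI, 83.3% and 91.9% with at least 5, and 96.4% and 98.8% with at least 2 Adipoq UMIs. A mitochondrial limit of 10% gave 97.8% in the old mouse. The ratio of antibody medians, members over comparators, was 1.15 and 1.05, but 0.701 and 0.363 per 1000 RNA UMIs and 1 and 0.970 in depth-matched cells. The 94 genes lower in old members became 160 (with 160 higher) at 5000 UMIs per cell and 199 (with 154 higher) without the 10 richest cells, a setting chosen after seeing the data. The 18 old comparators, with 57001 UMIs in all, limit every comparison with them.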

Other observations

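Further genes, named after their values were seen, differed by at least 2-fold between the members of the 2 mice, with 1 mouse per age and no test. Efemp1, a matrix protein of the fibulin family, stood at 25.4 CPM in young and 227 CPM in old members, 8.94-fold higher (counting interval 8.09 to 9.89), and was found in 11.5% and 73.9% of them. Its log2 difference in all other barcodes was near 0. No list of interferon-inducible genes was set up, and 5 such genes are named one by one. In old members Ifit1 was 2.28-fold, Ifit3 2.71-fold, Irf7 2.32-fold, Gbp2 2.25-fold and Oasl2 2.45-fold higher. Their log2 differences elsewhere ran from -0.20 for Gbp2 to 0.48 for Irf7. These 5 were picked among genes past 2-fold, so their number cannot be set against the 1.23% of all genes that were higher. How many other interferon-inducible genes stayed below 2-fold was not counted.

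Tnfsf11, which encodes the osteoclast factor RANKL, was at 26.2 and 57.7 CPM and was found in 13.8% and 32.4% of members. The collagenase gene Mmp13 was at 186 and 400 CPM. Sfrp4, a secreted inhibitor of Wnt signalling, was at 1052 CPM in young and 436 CPM in old members, and the complement gene C6 at 197 and 80.6 CPM. For C6 the log2 difference in the other barcodes was -2.12.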
